A study of Mus musculus with 11 samples.

Results

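The genes of fibroblast growth factor (FGF) signalling followed here were 9, taken by symbol from the 27998 genes listed for the 10X libraries. They were the receptors Fgfr1, Fgfr2 and Fgfr3, the ligand Fgf7, and the intracellular feedback genes Spry1, Spry2, Spry4, Spred1 and Dusp6, and all 9 were measured on both platforms. The cells were GFP-positive, CD45-negative and CD102-negative sorted cells from livers of male Pdgfrb-BAC-eGFP mice on a C57BL/6 background, aged 10 to 16 weeks. In these mice the reporter is driven by regulatory sequence of Pdgfrb, so that the sort was aimed at mesenchymal cells. 10X Chromium libraries, each of 3 pooled mice, came from uninjured liver and from liver after 6 weeks of carbon tetrachloride (CCl4) under both digestion protocols, and from liver 72 h after a single CCl4 injection under protocol 2. Protocol 1 minced and digested the tissue and yielded fibroblasts and vascular smooth muscle cells, whereas protocol 2 perfused the liver with enzymes, took a density gradient and yielded hepatic stellate cells. Chronic CCl4 was given in 2 injections a week with harvest 48 h after the last, and every CCl4 dose was 0.25 µl per g of body weight. Smart-seq2 profiled single cells in 6 plates, from uninjured mice, mice 14 days after bile duct ligation (BDL) and mice after 6 weeks of CCl4.

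FGF ligands bind receptor tyrosine kinases on the cell surface together with heparan sulphate, and the activated receptor signals through adaptors, Ras and the Raf-MEK-ERK kinase cascade. ERK activity induces its own brakes: Sprouty and Spred proteins act on the cascade near Ras and Raf, and Dusp6 is a cytoplasmic phosphatase that removes the activating phosphates from ERK. Transcripts of these feedback genes are widely used as readouts of pathway activity, although other receptor tyrosine kinases induce them too. Fgf7 is a mesenchymal ligand that signals mainly to the epithelial splice form of Fgfr2, and the gene counts used here do not separate the splice forms of any receptor.

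The promoters of the 3 genes that stood highest in stellate-type cells are given first, since the results below turn on them. RefSeq sequence of GRCm38.p6 from 250 bases before to 50 bases after the annotated start was found for 7 of the 9 genes, without Fgfr1 and Spry4. Capitals mark CGGAA or its reverse complement TTCCG, one form of the site that ETS-type factors recognise, searched on both strands. Other forms with GGAA, such as aggaag in the printed Fgfr2 window, were not marked or counted. Spry1 (chr3:37639697-37639996, plus strand), Fgfr2 (chr7:130266759-130267058, minus strand) and Dusp6 (chr10:99262981-99263280, plus strand) read, 5′ to 3′:
Spry1: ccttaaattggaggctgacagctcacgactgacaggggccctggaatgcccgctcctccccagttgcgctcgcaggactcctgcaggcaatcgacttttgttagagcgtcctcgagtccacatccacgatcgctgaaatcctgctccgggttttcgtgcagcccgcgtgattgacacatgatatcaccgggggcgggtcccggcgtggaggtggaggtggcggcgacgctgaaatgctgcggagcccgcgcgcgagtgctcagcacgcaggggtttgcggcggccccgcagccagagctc
Fgfr2: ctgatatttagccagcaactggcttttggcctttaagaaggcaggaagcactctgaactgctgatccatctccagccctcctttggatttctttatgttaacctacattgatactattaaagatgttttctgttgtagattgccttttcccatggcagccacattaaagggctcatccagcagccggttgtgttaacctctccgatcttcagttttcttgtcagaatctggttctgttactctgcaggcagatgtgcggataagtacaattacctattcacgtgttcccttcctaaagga
Dusp6: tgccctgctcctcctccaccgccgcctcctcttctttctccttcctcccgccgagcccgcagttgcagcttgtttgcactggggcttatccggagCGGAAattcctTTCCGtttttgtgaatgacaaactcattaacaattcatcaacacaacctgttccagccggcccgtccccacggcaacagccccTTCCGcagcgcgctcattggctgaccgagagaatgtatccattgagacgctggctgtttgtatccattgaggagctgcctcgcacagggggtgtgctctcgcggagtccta

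The window of Dusp6 held CGGAA or TTCCG 3 times, that of Spred1 2 times and that of Spry2 1 time, and those of Spry1, Fgfr2, Fgfr3 and Fgf7 did not hold these exact letters. Of all 32851 RefSeq promoter windows of this length, 29.9% held them, against 3 of 8 windows of the genes studied (Fgfr3 has 2). The AP-1 site TGACTCA or TGAGTCA stood in 5.20% of all windows and in 0 of these 8. The 3 printed windows differed in base composition: Spry1 had 64.3% G or C and 29 CpG dinucleotides and Dusp6 57.3% and 19, whereas Fgfr2 had 43.7% and 4, against medians of 52.7% and 7 over all windows.

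Cells were grouped by clustering without the 9 genes or the pathway lists, and clusters were called fibroblast-like (FB-like), HSC-like or VSMC-like from fixed markers. On 10X, the 7 named groups of 1 library and 1 class held 1666 to 7132 cells. Nearly all HSC-like cells came from protocol 2 and nearly all FB-like and VSMC-like cells from protocol 1, so class and protocol cannot be told apart in the 10X libraries. Libraries held between 25962957 and 86661230 UMIs, and pairs of libraries shared 33 to 74 cell barcodes. Marker sums are given in CPM, UMI counts scaled to a total of 1000000 per group. Clusters were named from these marker lists, so the sums describe the labels and do not test them. Summed HSC markers were 27248 in uninjured HSC-like cells, 692 in FB-like ones and 460 in VSMC-like ones. Summed leucocyte markers stayed between 3.98 and 12.4 CPM and endothelial markers between 7.49 and 81.0 CPM in the 7 named groups, and the leucocyte marker Ptprc was at 0 in 6 of them. In Smart-seq2, 2065 of 2292 wells were kept, of which 312 were HSC-like, all of them uninjured. FB-like wells numbered 253 uninjured, 282 after BDL and 118 after CCl4, and VSMC-like wells 356, 349 and 208. Wells of 1 label on 1 plate are called a portion and were summed, and a portion held 20999176 to 96347394 reads. The sources differ on how many mice the portions came from, so p-values over portions measure only the spread between portions, which may be technical.

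Among the receptors, Fgfr2 was far higher in HSC-like cells than in the other classes, and Fgfr1 was lowest there. In the uninjured 10X libraries Fgfr2 stood at 398 CPM (95% Poisson interval 393 to 404) in HSC-like cells, while FB-like cells had 5.45 CPM (4.48 to 6.57) and VSMC-like cells 2.96 CPM (1.73 to 4.74). That is 73.1 times the FB-like level (interval 60.6 to 89.0) and 134.6 times the VSMC-like level. At least 1 Fgfr2 UMI was found in 87.0% of uninjured HSC-like cells against 2.36% of FB-like and 1.02% of VSMC-like cells, at median depths of 6718, 4893 and 3216 UMIs. With every cell thinned to 2000 UMIs these shares were 53.3%, 1.26% and 0.530%. There is 1 library per condition and protocol, so 10X differences have no replicate check, and their intervals cover counting error only.

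Fgfr1, a receptor of the same family, stood at 139.0 CPM (133.9 to 144.2) in uninjured FB-like cells, where VSMC-like cells had 72.1 CPM (65.3 to 79.4) and HSC-like cells 28.4 CPM. The FB-like level was 4.88 times the HSC-like level and 1.93 times the VSMC-like level. Fgfr3 was scarce everywhere on 10X: 12 to 85 UMIs a group, or 0.345 to 2.13 CPM, in the 7 named groups.

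The ligand Fgf7 marked the fibroblasts. It stood at 49.8 CPM (46.8 to 53.0) in uninjured FB-like cells, and VSMC-like cells had 6.27 CPM (4.39 to 8.68), a ratio of 7.95 (5.70 to 11.4). In uninjured HSC-like cells only 7 UMIs were counted, or 0.151 CPM (0.0607 to 0.311), and 0.102% of cells held one. Within the VSMC-like cells Fgf7 was concentrated in the cluster with Tnnt2 and Actg2 among its leading genes, at 30.1 CPM uninjured and 26.7 CPM after 6 weeks of CCl4. With finer clustering, the matching cluster also held Pi16, a leading gene of FB-like cells, at 658 and 349 CPM. Other VSMC-like clusters held Pi16 at 89.1 to 116.5 CPM. The part of fibroblast RNA or doublets in this Fgf7 was not tested.

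All 5 feedback genes were highest in uninjured HSC-like cells, as Fgfr2 was, by smaller margins. Spry1, a Sprouty protein that restrains receptor tyrosine kinase signalling, stood at 492 CPM (485 to 498) in uninjured HSC-like cells, and FB-like and VSMC-like cells had 82.2 and 35.9 CPM. Its HSC-like level was 5.98 times the FB-like level (5.69 to 6.29). Dusp6 stood at 267 CPM in HSC-like cells against 55.1 and 21.9 CPM in FB-like and VSMC-like cells, 4.85 and 12.2 times as high. Spred1, a Spred protein that recruits neurofibromin to Ras, stood at 67.8, 37.4 and 19.2 CPM in the same order. Spry2 was closer between HSC-like and FB-like cells, at 113 and 81.6 CPM, with 27.0 CPM in VSMC-like cells. Spry4 had the flattest profile, at 21.6, 14.6 and 10.7 CPM in HSC-like, VSMC-like and FB-like cells in turn, and was the only one of the 5 higher in VSMC-like than in FB-like cells.

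**Figure D1:**
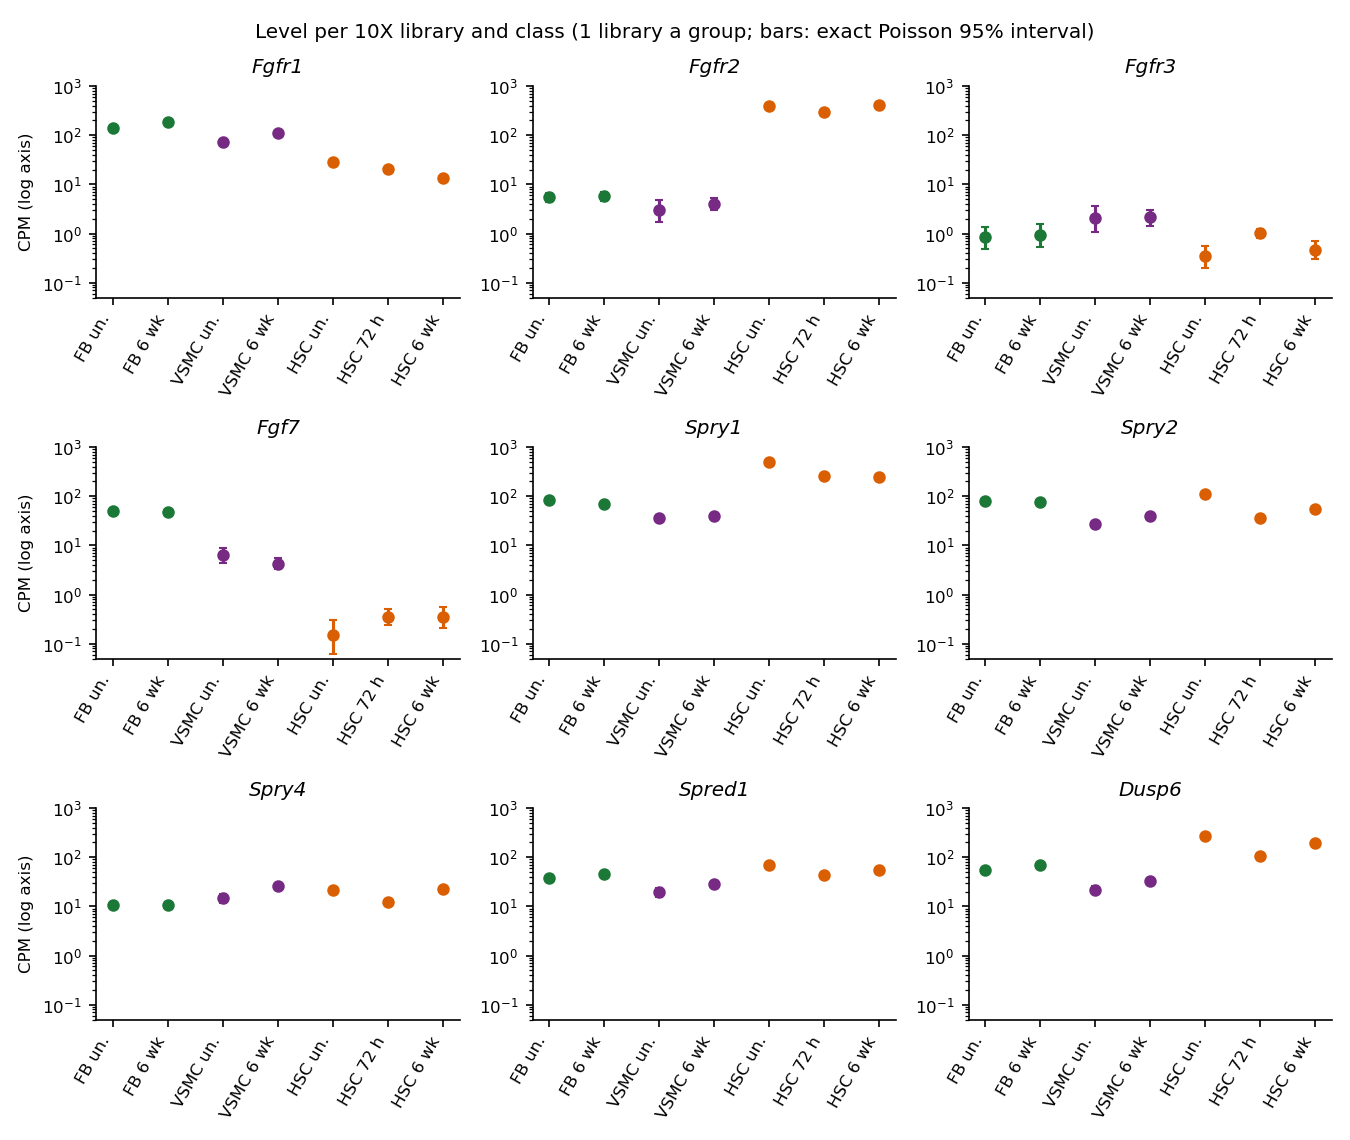
CPM of each gene (log axis) in FB-like, VSMC-like and HSC-like cells of each 10X library (un., uninjured; 6 wk, 6 weeks of CCl4; 72 h, after a single CCl4 injection), with exact Poisson 95% intervals for counting error. Fgfr2 stands near 400 CPM in uninjured HSC-like cells and under 6 CPM in every FB-like and VSMC-like group, and Fgf7 shows the reverse, under 0.4 CPM in HSC-like cells and above 46 CPM in FB-like cells.

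Few cells crossed between class and protocol, and their values are given for that reason. In 14 HSC-like cells of the protocol 1 libraries Fgfr2 stood at 113 CPM (48.7 to 222, from 8 UMIs in 5 cells), Spry1 at 155 CPM (77.4 to 278) and Dusp6 at 240 CPM (140 to 384), with Fgf7 at 0 UMIs. Fgfr1 stood at 70.5 CPM in these 14 cells (22.9 to 164.6, from 5 UMIs in 4 cells), against 28.45 CPM in uninjured HSC-like cells of protocol 2. In 20 FB-like cells of the 72 h and 6 week libraries of protocol 2, Fgfr2 stood at 39.1 CPM (17.9 to 74.3), Fgfr1 at 139 CPM (95.1 to 196) and Fgf7 at 21.7 CPM (7.06 to 50.7, from 5 UMIs). Both sets also carried markers of the other class: Gpx3 stood at 1735 CPM in the 14 HSC-like cells, and Ecm1 at 474 CPM in the 20 FB-like cells.

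The Smart-seq2 plates gave the same question replicates, with 6 FB-like, 6 VSMC-like and 2 HSC-like uninjured portions. Fgfr2 stood at 1897 and 2314 RPM (reads scaled to a total of 1000000 per portion) in the 2 HSC-like portions, at 22.7 to 263 RPM (median 128) in FB-like portions and at 8.31 to 63.9 RPM (median 26.4) in VSMC-like portions. The HSC-like portions did not overlap either other class. The share of all genes that separate in this way was not counted, so non-overlap of portions is a description only, here and below. At least 1 Fgfr2 read was seen in 310 of 312 HSC-like wells. By edgeR's quasi-likelihood test with Benjamini-Hochberg adjustment over all 14831 genes tested, Fgfr2 was higher in HSC-like than in FB-like wells by 4.03 on the log2 scale (SE 0.70, adjusted p = 0.00172) and than in VSMC-like wells by 6.33 (SE 0.74, adjusted p = 2.59e-05).

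Fgfr1 stood at 46.1 and 50.1 RPM in the HSC-like portions against 178 to 315 RPM in FB-like and 133 to 227 RPM in VSMC-like portions, again without overlap. It was lower in HSC-like than in FB-like wells, with a log2 change of -2.12 (SE 0.32, adjusted p = 0.000521), and than in VSMC-like wells, with -1.62 (SE 0.31, adjusted p = 0.00197; edgeR quasi-likelihood). The HSC-like wells all came from 2 portions of plate 6, and the FB-like and VSMC-like wells of that plate from the third. The labels give this plate 1 mouse of protocol 1 and 2 of protocol 2 without saying which portion is which. On plate 6 alone Fgfr2 stood at 72.5 RPM in FB-like and 63.9 RPM in VSMC-like wells and Fgfr1 at 199 and 159 RPM, so the HSC-like values stood apart within the plate too, but class, portion and protocol cannot be told apart there.

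Of the 9 genes, 2 passed the test between HSC-like and FB-like wells (7.07% of all genes did) and 5 between HSC-like and VSMC-like wells (13.1% of all genes). Besides the receptors, Spry1 was higher in HSC-like than in VSMC-like wells, at 581 and 586 RPM against 3.89 to 92.6 RPM (log2 3.70, SE 0.60, adjusted p = 0.000502, edgeR). Dusp6 was higher there as well, at 891 and 1077 RPM against 6.90 to 157 RPM (log2 4.80, SE 0.88, adjusted p = 0.00144, edgeR). Spry2 was higher by 1.83 (SE 0.40, adjusted p = 0.00546, edgeR), at 93.7 and 96.6 RPM against 15.9 to 56.4 RPM, but its call and that of Fgfr1 against VSMC-like wells did not hold when 1 of the 2 HSC-like portions was left out (adjusted p = 0.0503 to 0.0549 for Spry2 and 0.0513 for Fgfr1). Against FB-like wells, Spry1 and Dusp6 did not pass, with log2 changes of 1.77 (SE 0.61, adjusted p = 0.108) and 2.25 (SE 0.87, adjusted p = 0.162). In simulated counts this comparison recovered 8.5% of 200 genes changed 4-fold, so a missing call here says little. Those 200 genes were drawn at random over all levels, and the data held more called genes, 1049. The 8.5% is therefore not the recovery for Spry1 or Dusp6 themselves. Leaving out 1 VSMC-like portion, which enters only through the shared spread, gave Spry1 an adjusted p = 0.00321 (without that of plate 6) and Dusp6 an adjusted p = 0.0439 (without that of plate 4, edgeR). For Spry1 and Dusp6 the HSC-like and FB-like portions did not overlap: FB-like Spry1 lay between 134 and 300 RPM and FB-like Dusp6 between 134 and 415 RPM. The 10X order did not hold for Spry4 and Spry2 and was not clear for Spred1. Spry4 differed by log2 -0.19 between HSC-like and VSMC-like wells (edgeR with DESeq2 size factors, adjusted p = 0.929). Spry2 stood at 95.1 RPM over the HSC-like wells and at 93.9 to 153 RPM in uninjured wells of the FB-like clusters. For Spred1 these values were 60.8 RPM and 46.9 to 85.5 RPM.

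Between VSMC-like and FB-like wells, which shared portions and protocol, 5 of the 9 genes passed and all 5 were lower in VSMC-like wells, where 19.1% of all genes passed in either direction. Spry2 fell by 1.95 on the log2 scale (SE 0.32, adjusted p = 0.000349), Fgfr2 by 2.29 (SE 0.57, adjusted p = 0.00938), Spry1 by 1.92 (SE 0.48, adjusted p = 0.0101), Dusp6 by 2.55 (SE 0.71, adjusted p = 0.0195) and Fgf7 by 3.96 (SE 1.23, adjusted p = 0.0342; all edgeR quasi-likelihood). With the portion as a block, Fgfr2 and Fgf7 no longer passed (adjusted p = 0.0556 and 0.0948) and Spred1 did (log2 -1.01, adjusted p = 0.0473). FB-like Fgf7 ranged from 3.90 to 45.9 RPM and VSMC-like Fgf7 from 0 to 3.73 RPM, and leaving out any of 5 single portions lost its call. Smart-seq2 counts ignore strand, so the values of Fgf7, Fgfr1, Fgfr3, Spry1 and Spry4, which overlap genes on the opposite strand, may include reads of those genes.

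**Figure D2:**
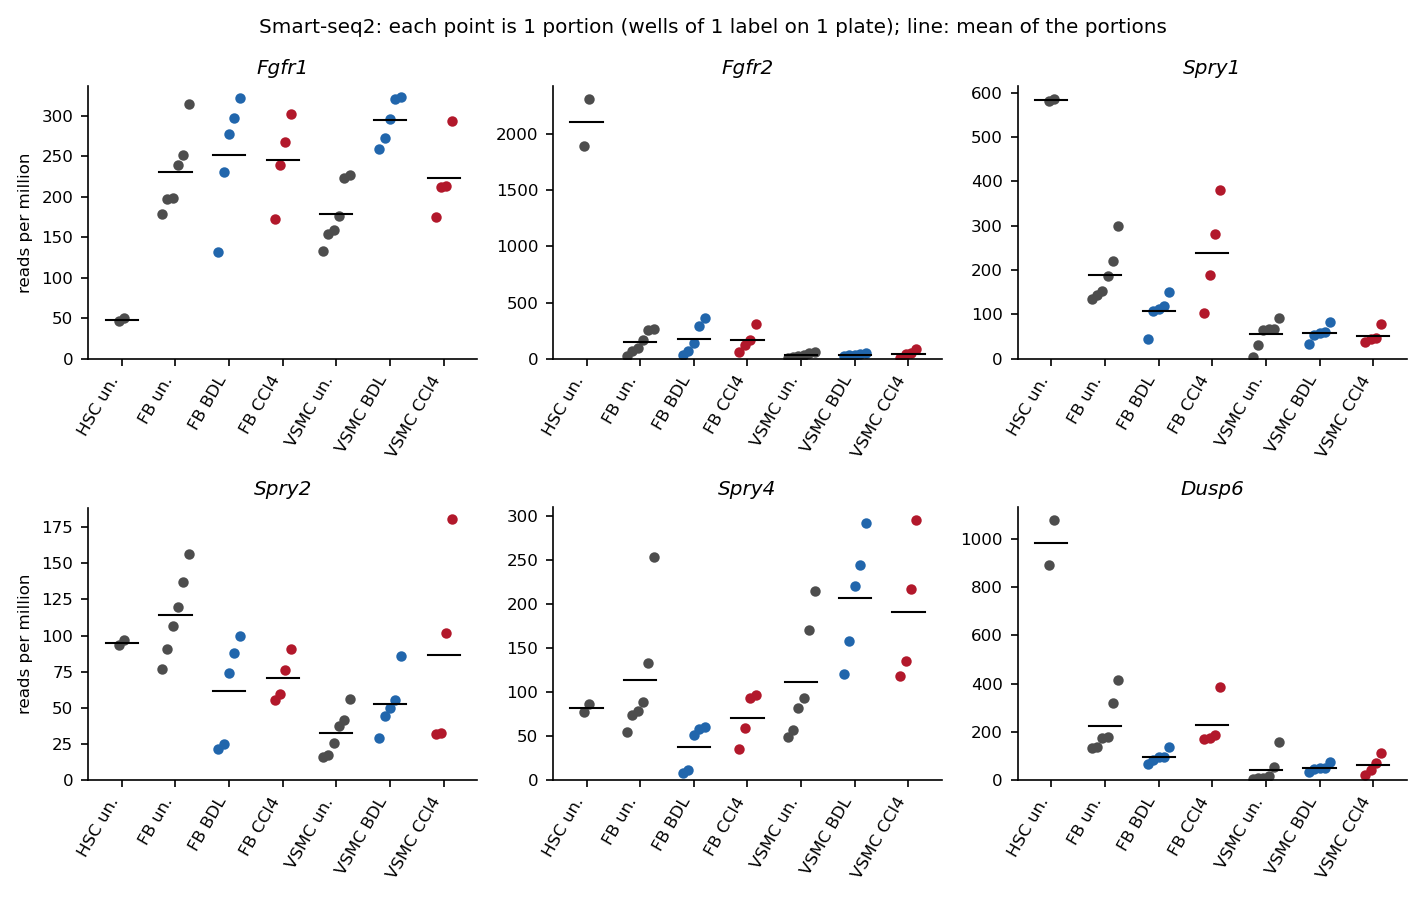
RPM of 6 genes in Smart-seq2 portions of HSC-like, FB-like and VSMC-like wells, uninjured (un., grey), after BDL (blue) and after 6 weeks of CCl4 (red), where each point is 1 portion and the line is the mean. The 2 HSC-like portions stand above all others for Fgfr2, Spry1 and Dusp6 and below all others for Fgfr1, and the 5 BDL portions of VSMC-like wells stand above the uninjured ones for Fgfr1.

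The other ligands and receptors were split between the classes too. Fgf12, an FGF homologous factor that stays inside the cell, stood at 22.1 CPM in uninjured HSC-like cells on 10X against 0 UMIs in uninjured FB-like and VSMC-like cells, which allow up to 0.149 and 0.522 CPM at 3 counts. In Smart-seq2 it stood at 36.8 and 43.4 RPM in the HSC-like portions and at most 1.33 RPM elsewhere (log2 8.04 against FB-like wells, SE 2.14, adjusted p = 0.0315, edgeR; 5 of the 6 FB-like portions were at 0, so the size depends on the prior count). Fgf1, a ligand for all FGF receptors, belonged to VSMC-like cells, at 59.6 CPM on 10X against 6.54 CPM in FB-like cells, and at 222 to 370 RPM against 9.31 to 60.2 RPM in Smart-seq2 (log2 3.00, SE 0.45, adjusted p = 0.00015, edgeR). Fgf18 and Fgf2 were highest in FB-like cells on 10X, at 53.3 and 31.4 CPM, against 0.0862 and 11.5 CPM in HSC-like cells. Of the 22 ligand genes, 13 were tested in Smart-seq2, and 1 was higher and 3 lower in VSMC-like than in FB-like wells, where 19.1% of all genes passed. Of 9 receptor and co-receptor genes, 4 were lower in VSMC-like wells (Fgfr4, Kl, Flrt2 and Fgfr2) and 0 higher.

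Gab1, an adaptor that couples receptors to Ras and PI3K signalling, was the member of the 20-gene adaptor and ERK cascade list that separated HSC-like from FB-like wells, at 205 and 240 RPM against 18.02 to 50.7 RPM (log2 2.79, SE 0.37, adjusted p = 0.000173, edgeR). Of the 18 tested genes of the list of ERK feedback genes and targets, 0 differed between HSC-like and FB-like wells by edgeR, 4 were higher in HSC-like than in VSMC-like wells (13.1% of all genes passed), and 6 were lower and 1 higher in VSMC-like than in FB-like wells (19.1%). Phlda1, a gene induced through ERK, had the smallest adjusted p of that list: it stood at 296 and 494 RPM in HSC-like, 252 to 560 RPM in FB-like and 15.7 to 58.0 RPM in VSMC-like portions (HSC-like against VSMC-like log2 4.06, SE 0.42, adjusted p = 8.07e-06, edgeR). The gene higher in VSMC-like than in FB-like wells was Ccnd1, the cyclin of G1 (log2 2.21, SE 0.65, adjusted p = 0.0259, edgeR). The median log2 difference of the list was -1.39 between VSMC-like and FB-like wells, against -0.02 over all genes.

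At 72 h after a single CCl4 injection, the feedback genes were lower in HSC-like cells and Fgfr2 less so. Spry2 was at 35.2 CPM against 113 CPM uninjured, 0.313 times the uninjured level (0.299 to 0.327) or 3.20-fold lower. Dusp6 was at 105 against 267 CPM (0.394 times, 0.384 to 0.405) and Spry1 at 254 against 492 CPM (0.516 times). Spry4 and Spred1 were at 0.581 and 0.655 times the uninjured level. The 2 receptors differed by less than 1.5-fold: Fgfr2 was at 298 against 398 CPM (0.748 times, 0.733 to 0.762), and Fgfr1 at 20.3 against 28.4 CPM (0.714 times, 0.665 to 0.768). Of the 7 genes with at least 20 CPM in either library, 5 were at least 1.5-fold lower and 0 higher, where 26.1% of all 6235 such genes were that much lower, 13.3% that much higher and 39.5% either. Their median log2 ratio was -0.78 against -0.21 over all genes. Spry4 entered only through its uninjured level, since it was at 12.5 CPM at 72 h, so its place in this count is fixed by the filter.

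The wider list of ERK feedback genes and targets had 11 of its 12 measured genes at least 1.5-fold lower, where 26.1% of all genes were, with the sum of the list at 1622 against 2675 CPM. Besides the 5 above these were Ier3 (0.462 times), Ccnd1, Spred2 (0.563), Dusp5 and Etv1 (0.589 each) and Myc (0.601), with Phlda1 within 1.5-fold. The 11 thus include the 5 genes already counted, among them Spry4, whose place is fixed by the filter. In the adaptor and cascade list 6 of 16 measured genes were lower, among them Map2k1, the gene of the kinase MEK1, at 0.532 times, and Grb2 was higher at 1.60 times. Of the heparan sulphate enzymes 0 of 5 passed 1.5-fold, and of 6 other receptor tyrosine kinases only Axl did, at 1.57 times. The list medians were -0.81 for feedback and targets and -0.34 for the cascade on the log2 scale.

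Other groups of genes differed in the same comparison, and their part in these differences was not tested. Immediate early genes summed to 6827 against 13348 CPM with 7 of 9 lower, heat shock genes to 1431 against 3622 CPM with 8 of 9 lower, proliferation genes to 340 against 28.7 CPM, fibrillar collagens to 8536 against 2035 CPM, and the HSC markers to 5943 against 27248 CPM, while FB markers summed to 246 against 30.5 CPM and VSMC markers to 1906 against 594 CPM. Median depth was 11275 UMIs at 72 h against 6718 uninjured. Without the clusters of dividing cells the ratios were 0.349 for Spry2, 0.454 for Dusp6, 0.562 for Spry1 and 0.763 for Fgfr2. Scaling by TMM factors moved all log2 ratios of this comparison by 0.14 towards higher and left every one of the 7 genes lower, and Spred1 then stood at 0.720 times, within 1.5-fold.

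After 6 weeks of CCl4 the feedback genes of HSC-like cells stood apart from each other. Spry1 was at 250 CPM, 0.509 times the uninjured level (0.498 to 0.520), and Spry2 at 56.0 CPM or 0.498 times (0.475 to 0.521). Dusp6 was at 198 CPM, 0.740 times the uninjured level, and Spred1 and Spry4 were at 0.797 and 1.05 times. Fgfr2 was at 412 CPM, within 1.04 times of its uninjured level (1.02 to 1.06), while Fgfr1 was at 13.7 CPM or 0.481 times (0.438 to 0.527). In all, 3 of 7 genes were at least 1.5-fold lower, against 11.3% of all 6010 genes lower, 6.19% higher and 17.5% either, and Fgfr1 entered only through its uninjured level. TMM scaling moved log2 ratios by 0.18 towards higher and left these 3 past 1.5-fold.

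The list of feedback genes and targets had 2 of 12 genes lower and Myc higher (1.75 times), where 11.3% of all genes were lower and 6.19% higher, with a sum of 2019 CPM. Here 0 of 9 immediate early genes and 1 of 9 heat shock genes passed 1.5-fold, and proliferation genes summed to 38.7 CPM, while the HSC, FB and VSMC markers summed to 14988, 518 and 993 CPM. Their part in these differences was not tested. Set against the 72 h library directly, Dusp6 was 1.88 times, Spry4 1.81 times and Spry2 1.59 times as high after 6 weeks, 3 of 7 genes where 12.6% of genes were that much higher, 11.8% lower and 24.4% either, and Spry1 was at 0.987 times. Spry4 entered only through the 6 week library, since it was at 12.5 CPM at 72 h, so its place in this count is fixed by the filter. The injured libraries came from separate mice treated differently, so no course over time was measured.

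**Figure D3:**
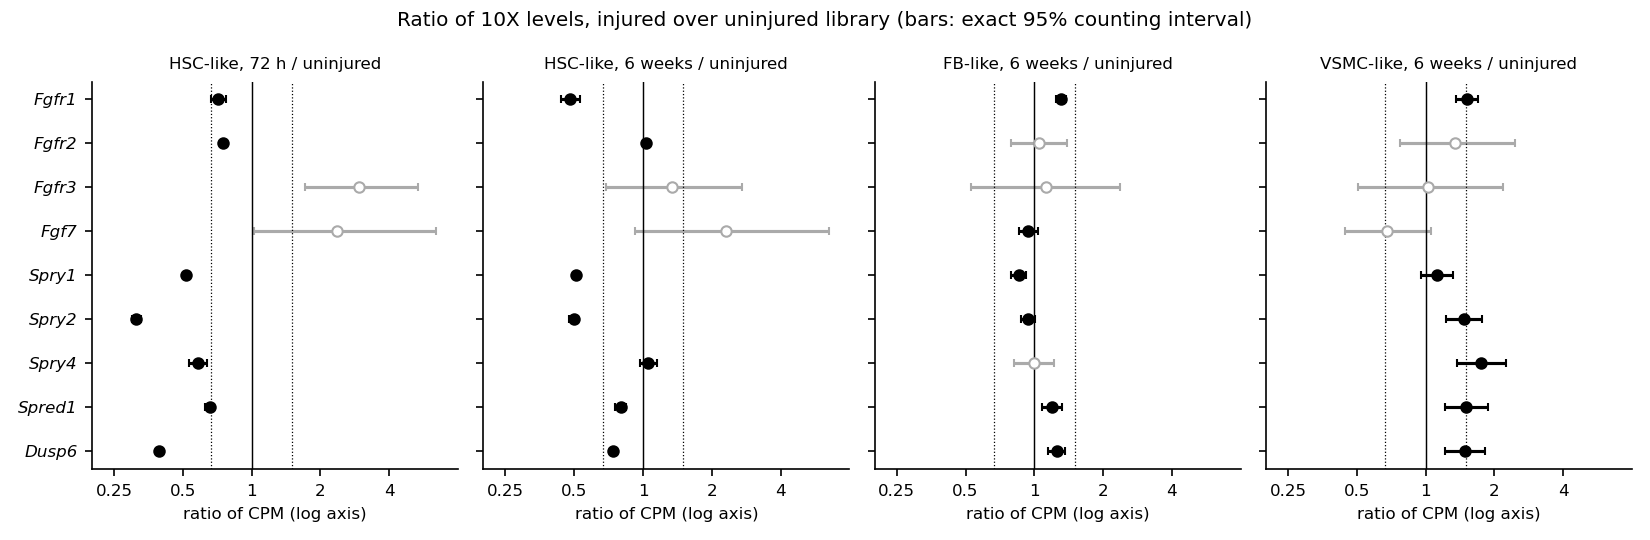
Ratio of CPM (log axis) of the injured over the uninjured 10X library in 4 comparisons, with exact 95% counting intervals. Filled points are genes with at least 20 CPM in either library, open points are those below, and dotted lines mark 1.5-fold. In HSC-like cells at 72 h Spry2 and Dusp6 lie furthest to the left, in HSC-like cells at 6 weeks Fgfr1, Spry1 and Spry2 lie near 0.5, the 6 filled points of FB-like cells stay within 1.5-fold, and those of VSMC-like cells lie to the right of 1.

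In FB-like cells 0 of 6 measured genes passed 1.5-fold after 6 weeks of CCl4, where 6.50% of genes did in either direction, 4.67% upward and 1.83% downward. Fgfr1 was at 182 against 139.0 CPM (1.31 times), Dusp6 at 69.1 against 55.1 CPM (1.25 times) and Fgf7 at 46.8 against 49.8 CPM (0.940 times). Among the other ligands, Fgf18 was at 27.3 against 53.3 CPM, 0.513 times. Of the feedback genes and targets Myc and Ccnd1 were higher, at 2.24 and 2.03 times.

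In VSMC-like cells the direction was upward. Spry4 was at 25.6 against 14.6 CPM (1.75 times, 1.38 to 2.25), Fgfr1 at 109 against 72.1 CPM (1.51 times, 1.36 to 1.69) and Spred1 at 28.9 against 19.2 CPM (1.51 times, 1.22 to 1.88). These were 3 of 6 measured genes at least 1.5-fold higher against 6.86% of all 5901 genes higher, 2.30% lower and 9.17% either, but Spry4 and Spred1 entered only through the injured library. Dusp6 and Spry2 lay just inside the threshold, at 1.485 and 1.47 times, and under TMM scaling only Spry4 remained past it. In Smart-seq2 VSMC-like wells after CCl4 the log2 changes were 0.54 for Spry4 (SE 0.49) and 0.25 for Fgfr1 (SE 0.27). Spred1 went the other way there, at -0.34 (SE 0.95), while Dusp6 and Spry2 were at 2.81 (SE 0.80) and 0.52 (SE 0.47). None of these was called by edgeR. Fgf7, under 20 CPM in both libraries, was at 4.26 against 6.27 CPM (0.679 times, 0.442 to 1.06), an interval that includes no difference. Ccnd1 was 4.60 times as high, at 190 against 41.5 CPM.

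The mix of VSMC-like cells differed between the libraries beside this. The cluster led by Ephx3, Higd1b, Nrarp and Olfr558 held 545 of 1666 VSMC-like cells uninjured and 1805 of 3000 after 6 weeks, and it carried more Spry4 (29.8 and 36.7 CPM) than the cluster led by Tcap, Sorbs2 and Cnn1 (7.97 and 11.03 CPM). Fgfr1 was higher after 6 weeks within both, at 110 against 74.6 CPM and at 103 against 62.5 CPM. The counts of cells carry no replicates.

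Smart-seq2 gave replicate portions for chronic injury in protocol 1 cells, and 0 of the 9 genes passed the edgeR test in any of the 7 comparisons, in which 0 to 0.00767% of all genes passed. At an unadjusted p under 0.05 there were 314 to 1374 genes in a comparison. In simulated counts the BDL and CCl4 tests recovered few of 200 genes changed 4-fold, which were drawn at random over all levels. The share ran from 0.0% for CCl4 in FB-like wells to 43.0% for BDL in VSMC-like wells, so a missing call here says little. In VSMC-like wells Fgfr1 stood at 259 to 323 RPM in the 5 BDL portions and at 133 to 227 RPM in the uninjured ones, with no overlap (log2 0.86, SE 0.24, adjusted p = 0.465). Spry4 stood at 120 to 291 RPM after BDL and 48.8 to 215 RPM uninjured (log2 1.39, SE 0.50, adjusted p = 0.564), and Dusp6 at 22.4 to 112 RPM after CCl4 against 6.90 to 157 RPM (log2 2.81, SE 0.80, adjusted p = 1). DESeq2 in the same design called these 3, with adjusted p = 0.0249 for Fgfr1, 0.0319 for Spry4 and 0.0057 for Dusp6. It was the more permissive test here, calling 376 of 13033 genes for BDL and 187 of 13033 for CCl4 in VSMC-like wells. The uninjured ranges cover all plates, whereas the log2 changes were fitted with plate as a term. The 157 RPM of Dusp6 came from plate 4, which held no CCl4 wells. In FB-like wells Spry1 stood at 44.5 to 150 RPM after BDL against 134 to 300 RPM uninjured (log2 -1.01, adjusted p = 0.696), and the pathway lists held 0 called genes by edgeR in every injury comparison. The difference between the BDL and CCl4 effects was tested over all wells, and 0 of the 9 genes passed, Spred1 coming nearest with a log2 difference of 1.00 (adjusted p = 0.998, edgeR).

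Within the HSC-like cells the genes differed in how far they varied between clusters, and Spry2 varied most. Uninjured, Spry2 stood at 260 CPM in the cluster led by Fcna, Ptafr and Adap2os (1548 cells) and at 44.6 to 105 CPM in the other 3, a ratio of 5.84 between highest and lowest, whereas Spry1 varied by 1.34. At 72 h Spry2 stood at 165 CPM in the cluster led by Pam, Slc39a1 and Abhd2 (1520 cells) and at 14.7 CPM in the largest cluster (3080 cells), a ratio of 11.2. After 6 weeks it was highest in a pair of small clusters, at 209 CPM (121 cells) and 198 CPM (77 cells), stood at 177 CPM in the cluster led by Pam, Pim1 and Lrp4 (990 cells) and was lowest in the largest, at 29.3 CPM (2398 cells), a ratio of 7.13. These Spry2-high clusters were shallower than the largest cluster of their library, with a median of 5692 against 13258 UMIs at 72 h and of 5255, 4283 and 4806 against 10636 UMIs at 6 weeks, while the uninjured one had 6098 against 6754 UMIs. The part of depth in these levels was not tested.

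Most HSC-like clusters came largely from 1 library. In the largest 72 h cluster 3080 of 3095 cells were from 72 h, and in the largest uninjured one 2686 of 2715 were uninjured. A comparison of clusters therefore repeats that of libraries, and the part of cell mix was not tested. The share of all genes whose clusters separate as below was not counted. For Spry1 and Dusp6 every cluster at 72 h lay below every uninjured cluster. Spry1 ranged from 157 to 376 CPM against 410 to 548 CPM, and Dusp6 from 55.0 to 132 CPM against 154 to 294 CPM. For Spry2 and Fgfr2 the clusters of the 2 libraries overlapped. At 72 h the clusters of dividing cells held the lowest Dusp6, at 55.0 and 67.4 CPM. After 6 weeks every cluster again lay below the uninjured range for Spry1 (173 to 305 CPM) but not for Dusp6 (146 to 214 CPM).

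**Figure D4:**
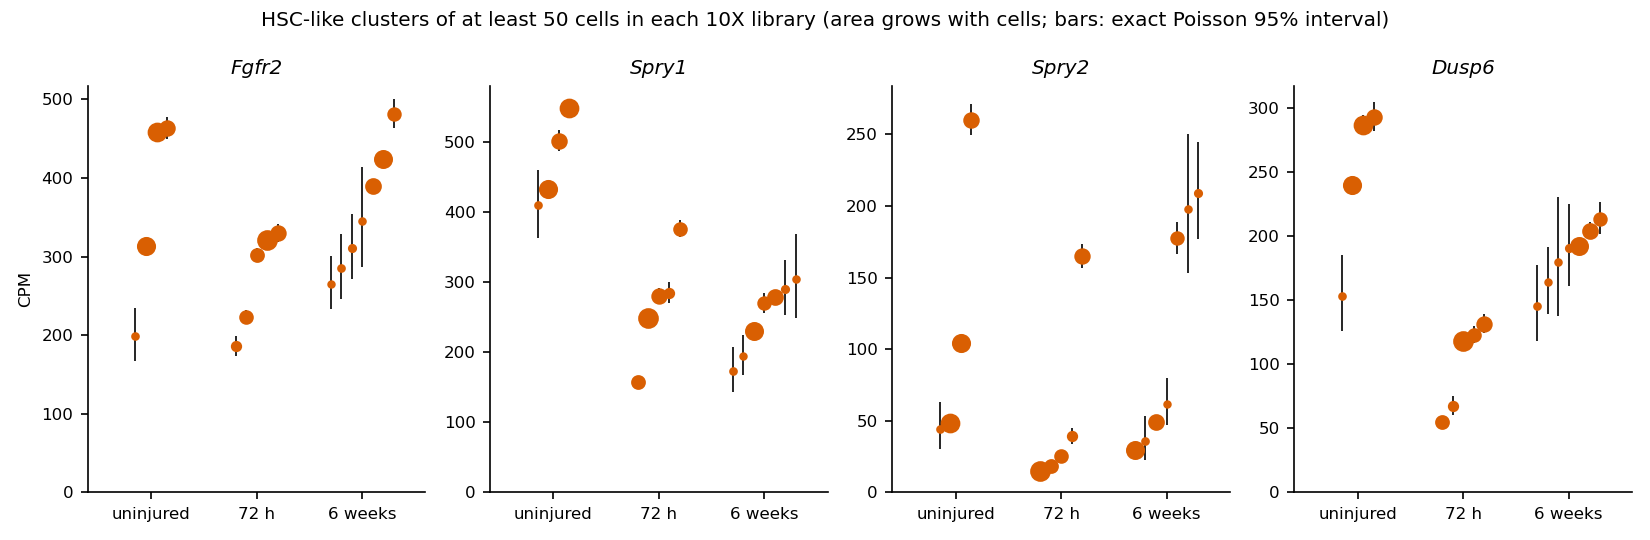
CPM of Fgfr2, Spry1, Spry2 and Dusp6 in each HSC-like cluster of at least 50 cells, by library (protocol 2), with exact Poisson 95% intervals, where the size of a point grows with its number of cells. For Spry1 all clusters at 72 h and 6 weeks lie below the 4 uninjured ones, and for Spry2 each library has clusters far above the rest, up to 260 CPM uninjured.

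Position along the portal to central axis, scored from the study's zonation genes without the 9 genes, went with different directions for the receptors and for Spry2. The scores were built from genes that the study chose on these libraries, and cells were divided in 2 at a cut near which 587 to 1221 cells a library lay. Fgfr1 was lower in cells with portal-type scores in all 3 libraries, at 0.451, 0.341 and 0.425 times the central level uninjured, at 72 h and at 6 weeks. Its portal and central levels were 16.99 and 37.66 CPM uninjured, 8.002 and 23.49 CPM at 72 h, and 7.072 and 16.63 CPM at 6 weeks. Uninjured and at 72 h Fgfr1 thus reached 20 CPM only on the central side, where it was higher. At 6 weeks it was under 20 CPM on both sides, so the share of genes given below leaves it out. Fgfr2 was lower as well, at 298 against 479 CPM uninjured (0.623 times), 196 against 324 CPM at 72 h (0.606 times) and 338 against 446 CPM at 6 weeks (0.758 times). Spry2 ran the other way, at 1.33, 1.68 and 1.55 times the central level, and Dusp6 differed little, at 0.917, 0.980 and 0.945 times. Spry1 was lower on the portal side uninjured (0.906 times) and higher at 72 h (1.45 times). Of genes with at least 20 CPM, 3.44% uninjured, 12.2% at 72 h and 9.63% at 6 weeks differed by 1.5-fold either way.

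The 2 Smart-seq2 HSC-like portions, scored in the same way, held the same order for Fgfr1, Fgfr2 and Spry2. Fgfr2 stood at 1276 RPM in portal-type and 2348 RPM in central-type wells of one portion and at 1343 and 2701 RPM in the other. Fgfr1 was also lower in portal-type wells of both, at 25.9 against 54.1 RPM in the second portion. Spry2 stood at 127 against 74.8 RPM and at 123 against 82.0 RPM, higher on the portal side in both, and Spry1 at 551 against 603 RPM and at 518 against 614 RPM, lower on that side in both. Dusp6 differed between the portions, at 1064 against 1086 RPM in one and at 587 against 1013 RPM in the other. With 2 portions no test of these differences was made.

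Fgfr2 was not evenly absent from fibroblasts. In the Smart-seq2 cluster led by Inmt, Dpep1 and Wif1 (110 FB-like wells) Fgfr2 stood at 186 to 636 RPM, median 415, over 8 portions with at least 5 wells, and in the cluster led by Thbs4, Cilp and Col12a1, of which 67 of 68 wells came from BDL, at 144 to 855 RPM over 4 portions. In the cluster led by Dpep1, Penk and Scara5 it stood at 0 to 1.57 RPM over 5 portions, and in the largest FB-like cluster at 0.282 to 246 RPM over 15 portions. On 10X at a finer resolution, the FB-like cluster led by Ptn, Gas6 and Sfrp1, in which Wif1 stood at 117 CPM, held Fgfr2 at 17.5 CPM (884 cells) uninjured and 23.6 CPM (427 cells) after 6 weeks, against 1.07 to 5.73 CPM in the other 3 FB-like clusters. The same cluster held the most Spry1 of the FB-like clusters, at 144 and 153 CPM, and the least Fgf7, at 29.5 and 20.2 CPM. These clusters were singled out after their values were seen, so no test was made of them.

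Spry4 differed between the smooth muscle clusters in the same way, with overlap. In Smart-seq2 it stood at 162 to 1077 RPM, median 288, in the cluster led by Ephx3, Olfr558, Higd1b and Nrarp. A cluster led by Olfr558, Myh11 and Pcp4l1 held 162 to 362 RPM. The largest VSMC-like cluster, led by Pcp4l1, Rcan2 and Myh11 and also with Olfr558, held 42.8 to 182 RPM, median 102. Spry4 stood at 0.346 to 58.6 RPM in the lowest of the large VSMC-like clusters and 0 to 48.5 RPM in the cluster led by Actg2 and Tnnt2. That Actg2 cluster was the VSMC-like cluster with Fgf7 in both platforms. In Smart-seq2 it held 0 to 123 RPM, median 15.2, over 7 portions, where the other 4 held at most 0.340 RPM in any portion. The 123 RPM came from 5 of 12 wells of CCl4 mouse 1 of plate 3, a portion flagged for Fgf7 below.

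**Figure D5:**
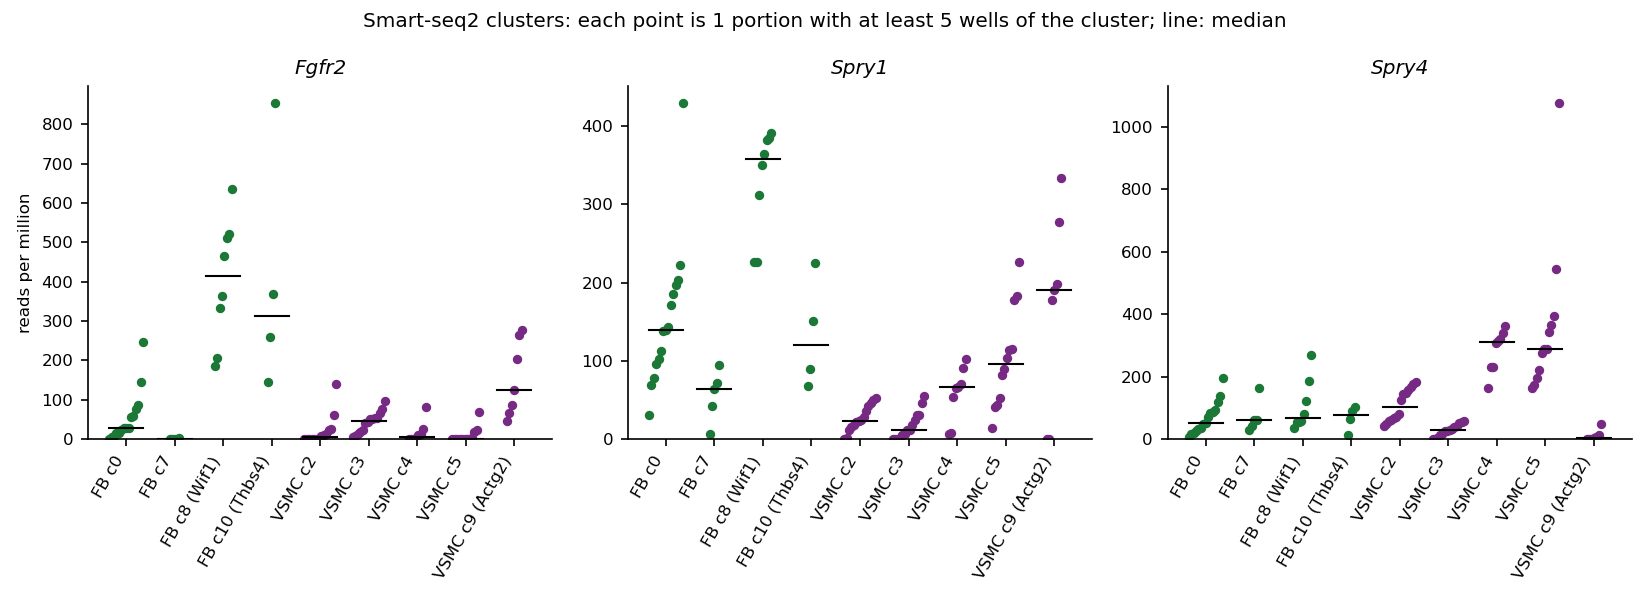
RPM of Fgfr2, Spry1 and Spry4 in FB-like (green) and VSMC-like (purple) Smart-seq2 clusters, where each point is 1 portion with at least 5 wells of that cluster and the line is the median. Fgfr2 and Spry1 are high in the FB-like cluster with Wif1, and Spry4 is above 160 RPM in every portion of VSMC-like clusters c4 and c5.

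Fgfr3 was close to background in every named class and was found in a small set of wells after BDL. In Smart-seq2 it stood at 0 to 20.9 RPM in every FB-like, HSC-like and VSMC-like portion. A Smart-seq2 cluster led by Saa3, Hp and Lcn2 scored highest for the cholangiocyte markers (5 of 5 detected), but these 3 leading genes are acute phase genes, not markers of that type, and it was not given that name. It held 160 wells, of which 137 came from CCl4, 21 from BDL and 2 from uninjured liver. Its 2 BDL portions with at least 5 wells held Fgfr3 at 388 and 201 RPM, and its CCl4 portions at 0 to 42.2 RPM. Fgfr3 was read in 13 of the 21 BDL wells and in both uninjured wells, against 5 of 137 CCl4 wells and 90 of 1905 kept wells outside the cluster. All 13 BDL wells and both uninjured wells with Fgfr3 also held reads of Epcam, an epithelial surface protein of bile duct cells, which was read in no other BDL well of the cluster. The cholangiocyte keratin Krt19 stood at 1042 RPM in the BDL wells of the cluster and 46.8 RPM in its CCl4 wells. These wells were looked at after their values were seen, and no test was made.

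The genes whose 10X profile was most like those of the main members were found over the 8 groups of library and class with at least 50 cells, among 7621 genes, by Pearson's r of log2(CPM + 1). Beside the named groups, these 8 include 161 cells at 72 h of an unnamed cluster led by Saa3 and Lcn2. Those cells were not part of the HSC-like levels above, and held Fgfr2 at 225, Spry1 at 91.8, Spry2 at 12.9 and Dusp6 at 77.6 CPM. The 8 groups share libraries, and with so few points many genes reach high values, so r is a description only. Closest to Fgfr2 were Serpina3g (r = 0.997), Chsy1 (0.996) and Syt9 (0.996), and closest to Fgf7 were Cd55 (0.997), Steap3 (0.996) and Creb5 (0.995). Closest to Spry1 were Psmb10, Abcg1 and Slc16a9 (0.993 each), and closest to Dusp6 were Birc3, Pxk (0.991 each) and Slfn5 (0.988).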

How the data were processed

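Droplet libraries and Smart-seq2 plates were analysed from gene counts that the authors deposited. Per the study's methods, 10X UMI counts came from Cell Ranger 2.1.0 (mm10) and Smart-seq2 read counts from STAR alignment to mm10. The 9 genes and the pathway lists were chosen with earlier results of these data known. Cells with at least 300 genes and at most 30% mitochondrial UMIs were kept, called doublets included, and wells beyond 3 median absolute deviations were dropped. Cells were clustered (leidenalg 0.10.2, igraph 0.11.9, scikit-learn 1.9.0) on 2000 variable genes and 10 components at resolution 0.8, and clusters were named from fixed markers by a score set after the clusters were seen. UMIs were summed per library and class and scaled to 1000000 per group (CPM, SciPy 1.17.1). A threshold of 1.5-fold was read for genes with at least 20 CPM. Reads summed per portion with at least 5 wells were tested with edgeR 4.0.16 (R 4.3.3), with plate as a term for injury and no term for class, and DESeq2 1.42.0 was an alternative. Calls were made at an adjusted p of 0.05. Methods were tested on simulated data. From pathway lists, genes past the threshold or the fold could be named, the 5 largest each way.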

Additional observations from a re-analysis of the deposited data

Results flagged for a closer look

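Within 54 groups of 4 to 6 Smart-seq2 portions of FB-like or VSMC-like wells, 4 had a portion that stood apart from the others by Dixon's ratio. Chance flags about 1 in 20 groups. Dusp6 in FB-like wells after CCl4 stood at 387 RPM in CCl4 mouse 2 of plate 3, where 18 of 22 wells held a read, against 186 RPM in the next portion. Dusp6 in uninjured VSMC-like wells stood at 157.5 RPM on plate 4 against 56.4 RPM in the next portion, with reads in 36 of 73 wells. Fgf7 in VSMC-like wells after CCl4 stood at 30.2 RPM in CCl4 mouse 1 of plate 3, from 5 of 45 wells, against 4.02 RPM in the next. In the same portion Spred1 was low, at 0.691 RPM from 4 of 45 wells, against 36.5 RPM in the next. On 10X, Fgfr1 after 6 weeks of CCl4 was at 1.51 times its uninjured level in VSMC-like cells and at 0.481 times in HSC-like cells, and this difference between classes and protocols was not tested.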

How the results depend on the processing

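Of the 10X ratios of the 9 genes, 173 of 208 recomputed values moved by less than their counting interval and no ratio past 1.5-fold changed direction, while the FB-like ratios of Spry2 and Fgf7 crossed 1. The 72 h ratios ranged over 0.310 to 0.467 for Spry2, 0.389 to 0.454 for Dusp6, 0.571 to 0.639 for Spry4, 0.644 to 0.720 for Spred1 and 0.735 to 0.823 for Fgfr2. The upper end for Spry2 came from thinned cells, and the mean over cells gave 0.4664, and leaving out dividing cells or the cluster led by Clec4g was chosen after seeing the data. The number of VSMC-like genes past 1.5-fold, 3 in the report, was 5 without called doublets, 1 with TMM scaling and 5 with thinned cells. In Smart-seq2, DESeq2 called 558 genes for BDL and 306 for CCl4 over all wells, 157 for their difference, 349 and 123 for the FB-like class, 376 and 187 for the VSMC-like class, and 1973 between HSC-like and FB-like wells, where edgeR called 0, 0, 0, 0, 0, 1, 0 and 1049. Without a filter on low counts edgeR called 32 and 16 over all wells, 260 and 33 for the FB-like class, and 160 and 19 for the VSMC-like class, and without the filter on wells it called 1 for CCl4. Portions of the same plate paired only weakly (r between -0.0139 and 0.0976). On every plate these r lay above the median r with portions of other plates, which was -0.0249 to -0.0079. With no plate block the counts were 43 for BDL and 26 for CCl4 over all wells, 25 and 32 for BDL in the FB-like and the VSMC-like class. Leaving out 1 portion at a time gave 0 to 4 calls for BDL in VSMC-like wells, 0 to 3 for CCl4 over all wells, 431 to 1215 for HSC-like against FB-like wells and 948 to 2240 for HSC-like against VSMC-like wells. Of 1746 recomputed Smart-seq2 results of the 9 genes, 12 gained and 10 lost their call and 0 reversed, and the cause was not tested. Spry4 after BDL in VSMC-like wells passed at log2 2.15 without the plate 4 portions (adjusted p = 0.0246 and 0.0265) and at 1.40 without a filter (adjusted p = 0.0122). With the portion as a block 2213 of 12037 tested genes differed between VSMC-like and FB-like wells. The wells-filter alternative was not run for FB-like and VSMC-like wells. Precision on 10X was limited by 1 library a group, and for Fgfr3 and for Fgf7 in HSC-like cells by their few UMIs.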
